A study of Mus musculus with 36 samples.

Results

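Cytochrome P450 enzymes of families 1 to 4 are haem proteins of the hepatocyte endoplasmic reticulum that oxidise drugs, environmental chemicals, steroids and fatty acids. They receive electrons from NADPH through the reductase encoded by Por, with cytochrome b5 as a second donor for some of them. Many are inducible through ligand-activated receptors, chiefly AhR for Cyp1a genes, CAR and PXR for Cyp2b, Cyp2c and Cyp3a genes, and PPARα for Cyp4a genes, and several mouse members differ between the sexes or between zones of the liver lobule. The members were all protein-coding mouse genes whose symbol is Cyp, a family number from 1 to 4, a single letter and a number, which leaves out the steroid, bile acid and retinoid enzymes of the higher families. This rule gave 76 of 52230 genes, with 3 in family 1, 49 in family 2, 7 in family 3 and 17 in family 4.

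Transcripts were measured by RNA-sequencing in 36 primary hepatocyte cultures from 3 female mice, aged 14 wk, of the P446L line, which carries leucine in place of proline at residue 446 of GKRP, the inhibitory protein of glucokinase (GK). By the labels, mouse 1 and mouse 2 had the genotype Gckr-446L and mouse 3 Gckr-446P/L, whereas the methods describe homozygous 446LL animals, and each mouse gave 1 hepatocyte preparation by collagenase. Per the study's methods, cells of this line served as GKRP-deficient hepatocytes in all conditions, controls included. The 10 conditions were untreated cells, cells given an adenoviral vector for human GKRP 446P (hP), human 446L (hL), mouse 446P (mP) or mouse 446L (mL), cells given a GK vector alone, and cells given the GK vector with each of the 4 GKRP vectors. Every condition held 10 nM insulin and 10 nM dexamethasone, a glucocorticoid, for 24 h of culture at 5 mM glucose and ended with 4 h at 25 mM glucose. Untreated cells and GK alone had 2 cultures per mouse, which were summed, so that 30 samples, 3 per condition, entered the tests. No empty vector is named in the sources used here, so a GKRP or GK vector and its adenovirus cannot be told apart against untreated cells. Cells with GK alone, counted below as without a GKRP vector, also received an adenovirus.

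Libraries held 3924674 to 10046158 assigned reads (median 5980276.5), and members took 0.454% to 0.662% of them (median 0.587%). Mouse Gckr rose from 37.1 to 119 counts scaled to library size (CPM) in 23 of 24 cultures without a mouse GKRP vector to 8938 to 23270 CPM in the 12 cultures with one. The 24th, a GK culture of mouse 3, held 1462 CPM of Gckr and carries the label GK alone. Reads of the long Apob transcript were low in 2 cultures of mouse 1, at 1322 CPM for GK with mP and 1860 CPM for GK with hL, against 2653 to 4725 CPM in the other 34. Each call of a member is also given without these cultures. The defining hepatocyte marker Alb was at 62280 to 122100 CPM in all 30 samples.

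Of the 76 members, 6 had no read in any culture (Cyp2c66, Cyp2j7, Cyp2j12, Cyp2w1, Cyp4a29 and Cyp4f40), 23 had reads but did not pass the filter on low counts, and 47 were tested among 12176 genes. The dioxin-inducible Cyp1b1, the extrahepatic Cyp2s1 and the family 4 gene Cyp4x1 were among the untested members, and no untested member had more than 185 reads over all cultures. On the TPM scale, which corrects for transcript length as well as depth, 8 members reached a mean of 100 TPM, 32 reached 10 TPM and 31 stayed under 1 TPM. The highest mean was that of Cyp2a5, the coumarin 7-hydroxylase, at 919 TPM, followed by Cyp2e1, which oxidises ethanol and acetaminophen, at 618 TPM. Cyp2d10 had 397 TPM, Cyp2c70, the muricholic acid enzyme of mouse liver, 238 TPM and Cyp3a11, the main drug-metabolising Cyp3a of mouse liver, 211 TPM. Family 2 supplied a median of 84.5% of all member TPM, family 3 7.5%, family 4 5.9% and family 1 1.61%. The order was nearly the same on counts per kb of effective length, with 14 of the 15 highest members shared.

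Several members have close copies, and their counts depend on how Salmon shared ambiguous reads. Of the 31-base words in the canonical transcript of Cyp2a5, 58.0% also occur in another gene and 47.7% in Cyp2a4, the female-predominant steroid 15α-hydroxylase. The share with another gene was 68.4% for Cyp2c67, 65.9% for Cyp2c69, 63.6% for Cyp2c40, 62.6% for Cyp2c68, 61.4% for Cyp4a32, 54.8% for Cyp4a10 and 54.2% for Cyp2d10. Levels of these genes are uncertain as to the copy. Cyp2b10 shared 21.6% of its words with other genes, most with Cyp2b13.

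The members' levels followed the mouse of origin. Mouse 1 had the highest Cyp1a1, Cyp1a2 and Cyp2a5 and the lowest Cyp4a10, Cyp4a14 and Cyp2e1, and mouse 2 had the highest Cyp2b10 and Cyp3a11. The start regions of 5 genes known as targets of AhR (Cyp1a1 and Cyp1a2), CAR (Cyp2b10) and PPARα (Cyp4a10 and Cyp4a14) are printed here, 250 bases before to 50 after the annotated start of the canonical transcript (GRCm39, Gencode M39), 5′ to 3′ on the gene's own strand. Capitals mark 3 motifs searched on both strands: GCGTG, the core that AhR and its partner Arnt recognise, AGGTCA, the hexamer read by nuclear receptors such as PPARα, PXR and CAR, and CACGTG, the E box bound by bHLH factors. None of the 3 contains another.
Cyp1a1 promoter, chr9:57603892-57604191, plus strand: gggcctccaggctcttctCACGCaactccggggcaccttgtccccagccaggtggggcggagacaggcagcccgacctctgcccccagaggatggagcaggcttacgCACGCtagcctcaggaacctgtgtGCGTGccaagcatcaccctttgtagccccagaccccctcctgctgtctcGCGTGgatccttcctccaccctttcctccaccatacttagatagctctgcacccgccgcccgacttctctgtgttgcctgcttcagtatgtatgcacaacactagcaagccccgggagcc
Cyp1a2 promoter, chr9:57590937-57591236, minus strand: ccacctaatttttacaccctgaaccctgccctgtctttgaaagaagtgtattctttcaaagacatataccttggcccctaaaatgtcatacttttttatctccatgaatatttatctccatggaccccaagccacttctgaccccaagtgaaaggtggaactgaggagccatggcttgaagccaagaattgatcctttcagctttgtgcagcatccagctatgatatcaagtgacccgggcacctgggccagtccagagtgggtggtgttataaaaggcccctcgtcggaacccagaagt
Cyp2b10 promoter, chr7:25596795-25597094, plus strand: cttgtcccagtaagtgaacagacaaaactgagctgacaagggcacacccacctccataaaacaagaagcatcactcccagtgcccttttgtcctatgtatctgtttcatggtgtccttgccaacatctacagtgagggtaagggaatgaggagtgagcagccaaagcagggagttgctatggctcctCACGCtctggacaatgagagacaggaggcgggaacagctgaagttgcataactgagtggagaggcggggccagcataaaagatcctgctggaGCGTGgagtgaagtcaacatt
Cyp4a10 promoter, chr4:115375211-115375510, plus strand: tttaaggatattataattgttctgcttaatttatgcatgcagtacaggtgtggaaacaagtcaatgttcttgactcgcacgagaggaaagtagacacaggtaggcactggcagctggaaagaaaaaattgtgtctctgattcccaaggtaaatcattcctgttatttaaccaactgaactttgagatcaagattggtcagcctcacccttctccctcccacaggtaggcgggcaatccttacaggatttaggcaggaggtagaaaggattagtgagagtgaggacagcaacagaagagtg
Cyp4a14 promoter, chr4:115353295-115353594, minus strand: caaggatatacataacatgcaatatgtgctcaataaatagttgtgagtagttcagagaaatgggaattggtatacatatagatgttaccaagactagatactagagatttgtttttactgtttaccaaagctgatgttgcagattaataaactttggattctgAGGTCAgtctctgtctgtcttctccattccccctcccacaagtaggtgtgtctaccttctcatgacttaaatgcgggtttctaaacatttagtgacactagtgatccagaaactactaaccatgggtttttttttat
The Cyp1a1 region held GCGTG 4 times, at 232, 143, 119 and 70 bases before the start, and Cyp2b10 held it at 63 bases before and 29 after. Cyp4a14 held a single AGGTCA 87 bases before the start, and Cyp1a2 and Cyp4a10 held none of the 3. GCGTG stands in 15 of 76 member regions (19.7%) and in 37.0% of the regions of 21770 protein-coding genes. AGGTCA stands in 19 member regions (25.0% against 15.1% of all), among them Cyp2e1, Cyp2c29, Cyp2c70, Cyp3a11, Cyp2b9 and Cyp2f2, and CACGTG in 2 (Cyp2j6 and Cyp4v3, 2.63% against 7.81%). These are descriptions of short windows and do not include distal enhancers. The Cyp4a10 and Cyp4a14 windows matched at 37.0% of 281 aligned bases, whereas those of Cyp2b9 and Cyp2b13 matched at 99.3% of 299 and those of Cyp2a4 and Cyp2a5 at 98.3% of 290.

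Cyp1a1 and Cyp1a2, neighbours on chromosome 9 that hydroxylate aromatic hydrocarbons and amines, were highest in mouse 1. Cyp1a1 ran from 7.99 to 17.6 CPM over the 10 conditions of mouse 1, from 0.808 to 3.66 CPM in mouse 2 and from 3.12 to 6.81 CPM in mouse 3. Every sample of mouse 1 lay above every sample of the other two, and the ratio of the highest to the lowest mouse median was 10.9. Cyp1a2 ran from 173 to 246 CPM in mouse 1, from 69.0 to 85.1 CPM in mouse 2 and from 109 to 128 CPM in mouse 3, so the 3 mice did not overlap. Cyp1b1, the third member of the family, had at most 2 reads in a culture.

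Cyp4a10 and Cyp4a14, ω-hydroxylases of fatty acids, went the other way. Cyp4a14 was at 52.5 to 65.5 CPM in mouse 1, 159 to 199 CPM in mouse 2 and 196 to 260 CPM in mouse 3, and Cyp4a10 at 23.9 to 32.3, 87.4 to 109 and 100.2 to 122 CPM. For both genes all 10 samples of mouse 1 lay below all 20 others, with ratios of 3.90 and 3.70 between mouse medians. The low copy Cyp4a32 overlapped between mice, at 0 to 1.29 CPM in mouse 1 and at most 3.67 CPM elsewhere.

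Among family 2 genes, Cyp2a5 was at 1285 to 2286 CPM in mouse 1 against 532 to 688 CPM in mouse 2 and 493 to 605 CPM in mouse 3. Cyp2e1 was at 404 to 520 CPM in mouse 1, 1114 to 1472 CPM in mouse 2 and 1015 to 1298 CPM in mouse 3. Consequently Cyp2a5 was the highest member in mouse 1 (1655 TPM against 326 TPM of Cyp2e1) and Cyp2e1 the highest in mouse 2 (781 against 514 TPM) and mouse 3 (747 against 589 TPM). Cyp2b10, the best known CAR target, ran from 19.5 to 82.2 CPM in mouse 1, from 177 to 282 CPM in mouse 2 and from 64.2 to 94.0 CPM in mouse 3, with mouse 2 apart and mice 1 and 3 overlapping. Cyp3a11 ran from 328 to 454 CPM in mouse 1, from 796 to 1017 CPM in mouse 2 and from 455 to 590 CPM in mouse 3, which did not overlap although mice 1 and 3 came close. Cyp2c29 (118 to 159, 221 to 304 and 171 to 229 CPM in mice 1, 2 and 3), the naphthalene-oxidising Cyp2f2 (49.8 to 62.6, 98.1 to 118 and 68.6 to 78.7 CPM) and the female-predominant Cyp2b9 (17.7 to 27.6, 37.2 to 49.7 and 36.5 to 46.99 CPM) were also lowest in mouse 1.

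**Figure D1:**
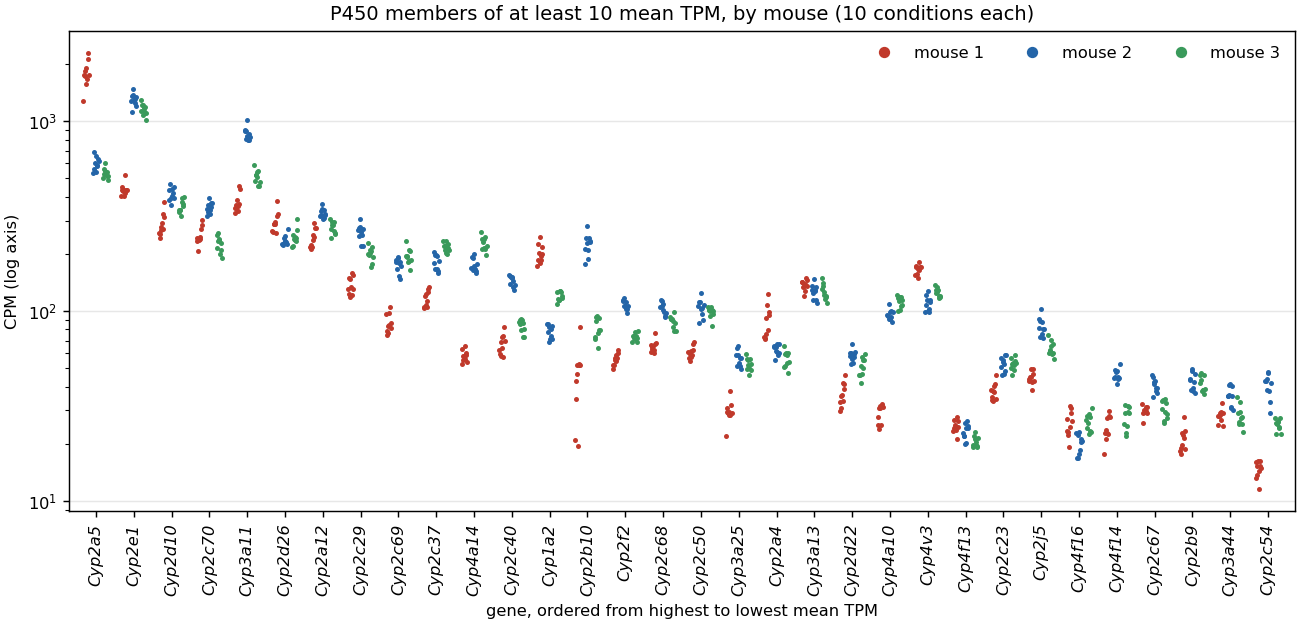
CPM (log axis) of the 32 members with a mean of at least 10 TPM, ordered by mean TPM, with 10 points (1 per condition) for each of the 3 mice. Cyp2a5 of mouse 1 sits at 1285 to 2286 CPM above the other mice, and Cyp4a14 of mouse 1 at 52.5 to 65.5 CPM below them; CPM compares samples of a gene and not genes of different length.

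Counted over the tested members, mouse 1 lay above both other mice in all 10 conditions for 6 of 47 (3.32% of all tested genes did so) and below them for 16 of 47 (2.4%). The 6 were Cyp1a1, Cyp1a2, Cyp2a4, Cyp2a5, Cyp2j6 and Cyp4v3, and the 16 included 8 Cyp2c genes besides Cyp2e1, Cyp2f2, Cyp2j5, Cyp2b9, Cyp3a11, Cyp3a25, Cyp4a10 and Cyp4a14. Mouse 2 lay above the others for 8 members (1.81%), among them Cyp2b10, Cyp2c40, Cyp2c70, Cyp3a11 and Cyp4f14, and below them for 1 (1.67%), Cyp1a2. Mouse 3 lay above for 1 member (0.427%), Cyp4b1, at 14.01 to 22.1 CPM against at most 11.4 CPM, and below for none (0.312%). In all, 28 of 47 members (59.6%) had at least 1 mouse apart from the others, against 8.95% of all tested genes. Among genes with a mean of at least 10 CPM the count was 26 of 36 members (72.2%) against 11.7%, and without the 2 cultures of mouse 1 with low Apob it was 29 of 47 (61.7%) against 10.7%. Each mouse is 1 preparation, so differences between mice have no replicate and no test, and the animal, the preparation and the labelled genotype of mouse 3 cannot be told apart.

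The variance of log2 CPM over the 30 samples was split into parts between mice, between conditions and the rest. The median member had 82.3% of its variance between mice and 6.47% between conditions, whereas the median tested gene had 28.8% and 25.7%. The share between mice was 98.5% for Cyp4a14, 98.2% for Cyp4a10, 98.0% for Cyp2e1, 96.5% for Cyp2a5, 96.0% for Cyp2f2 and 95.8% for Cyp1a2. It reached 80% in 28 members (59.6%, against 7.19% of all genes). The exceptions, with a share under 35%, were Cyp2d40 (10.3%), the vitamin D 25-hydroxylase Cyp2r1 (16.8%), Cyp3a13 (19.8%), Cyp4f17 (21.4%) and Cyp2d13 (30.9%). Of these, Cyp3a13 was the best expressed and differed little anywhere, at 110 to 150 CPM over all 30 samples. Between the paired cultures of one mouse and condition, the median member differed by 0.10 to 0.25 on the log2 scale.

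**Figure D2:**
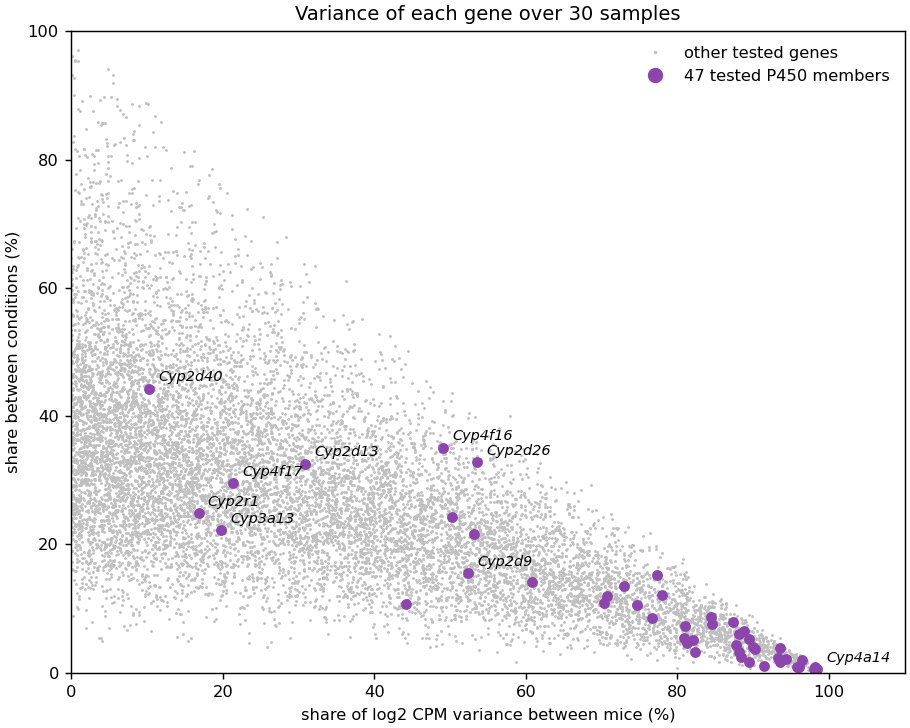
Share of the variance of log2 CPM between the 3 mice (x, %) and between the 10 conditions (y, %) for each tested gene over 30 samples, grey for other genes and purple for the 47 members. Most members lie at the lower right, with a median of 82.3% between mice, and Cyp2d40 lies farthest left at 10.3%.

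Genes outside the P450s that share a regulator with the members did not all order the mice the same way. Of the AhR targets, Nqo1 (26.5 to 37.4 CPM in mouse 1, at most 26.1 CPM elsewhere), Gsta1 (1145 to 1874 against at most 702 CPM) and Ugt1a6b (42.6 to 57.9 against at most 42.1 CPM) lay above in mouse 1 as the Cyp1a genes did, and Tiparp, Ugt1a6a and Xdh overlapped. The medians of Ugt1a6a and Xdh were highest in mouse 1, whereas that of Tiparp was lowest there (53.5, 79.2 and 68.3 CPM in mice 1, 2 and 3). Of 16 tested PPARα targets, 6 lay above in mouse 1 (among them Cpt1a, Ehhadh, Plin2 and Vnn1) and 1, Acadm, below, whereas Cyp4a10 and Cyp4a14 lay below. Cpt1a, the gate of mitochondrial fatty acid oxidation, was at 76.1 to 126 CPM in mouse 1 and at most 62.7 CPM elsewhere. Of 15 tested CAR and PXR targets, 5 lay above in mouse 1 (Abcc3, Aldh1a1, Aldh1a7, Gstm1 and Ugt2b34), and the uptake transporter Slco1a4 lay below, as did 7 of the 11 CAR and PXR inducible members. The ranges of these receptors' own genes overlapped between mice: Ahr at 31.2 to 60.95 CPM in mouse 1 and 18.7 to 40.0 CPM elsewhere, Ppara at 28.2 to 100 against 42.3 to 96.9 CPM, Nr1i2 (PXR) at 13.8 to 25.5 against 13.8 to 26.7 CPM. The Ahr medians nevertheless differed, at 48.5, 23.9 and 28.6 CPM in mice 1, 2 and 3. Of the 20 tested P450 regulators, Nr1h4 lay above in mouse 1 and Nr3c1 above in mouse 2. Nr1i3 (CAR) stayed at 0.467 to 2.51 CPM in all samples. Por, the electron donor, was at 657 to 926 CPM in mouse 1, 1122 to 1556 CPM in mouse 2 and 839 to 1187 CPM in mouse 3.

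Levels of other cell types and zones also moved with the mouse. Summed over 10 hepatocyte markers the level was 73950 to 96410 CPM in mouse 1, 117200 to 139600 CPM in mouse 2 and 93280 to 111500 CPM in mouse 3. Most of that sum is Alb, and of the 10 markers 4 lay above in mouse 2 and only Cps1 below in mouse 1. The 8 periportal markers summed to 924 to 1280, 1767 to 2034 and 918 to 1042 CPM, and the 9 pericentral markers to 259 to 350, 375 to 454 and 341 to 493 CPM. The periportal sum hides opposite orders. Sds, Pck1, Arg1 and Ass1 lay below in mouse 1 and Ctsc above. Hsd17b13, a large part of the sum, was at 497 to 707, 376 to 527 and 243 to 313 CPM in mice 1, 2 and 3. The 12 macrophage markers summed to 261 to 315, 278 to 360 and 301 to 366 CPM. In that list Cd68, the most abundant, lay below in mouse 1 (119 to 141 against at least 195 CPM), whereas Adgre1 (6.88 to 11.3 against at most 6.29 CPM), Lyz2 (11.6 to 17.3 against at most 8.14 CPM) and Cd5l (39.1 to 47.8 against at most 25.3 CPM) lay above. The 8 endothelial markers summed to 71.7 to 97.9, 78.4 to 90.02 and 109 to 124 CPM, and the 8 stellate and fibroblast markers to 21.0 to 34.2, 122 to 153 and 60.8 to 83.3 CPM. Of the latter, Reln was at 5.36 to 18.3, 107 to 141 and 27.1 to 44.2 CPM, Dcn at 10.2 to 17.02, 10.1 to 15.4 and 29.3 to 42.5 CPM, and the other 6 at most 2.27 CPM. The cholangiocyte markers Krt19, Krt7, Epcam and Cftr were at most 2.04 CPM, Sox9 was at 11.3 to 18.1, 6.50 to 13.6 and 8.91 to 20.03 CPM, and Spp1 was at 129 to 228 CPM in mouse 1 against at most 16.3 CPM. The 12 interferon genes summed to 577 to 793, 234 to 444 and 413 to 627 CPM, with Isg15, Irf7, Ifi44 and Oas1a among those above in mouse 1. The 12 acute phase and inflammatory genes, among them Hp, Lcn2, Ccl2 and the serum amyloid genes, summed to 22940 to 38280, 26530 to 29890 and 26890 to 31040 CPM. The part of any of these in the members' differences was not tested, and in bulk samples fewer cells of a type and less RNA per cell cannot be told apart.

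**Figure D3:**
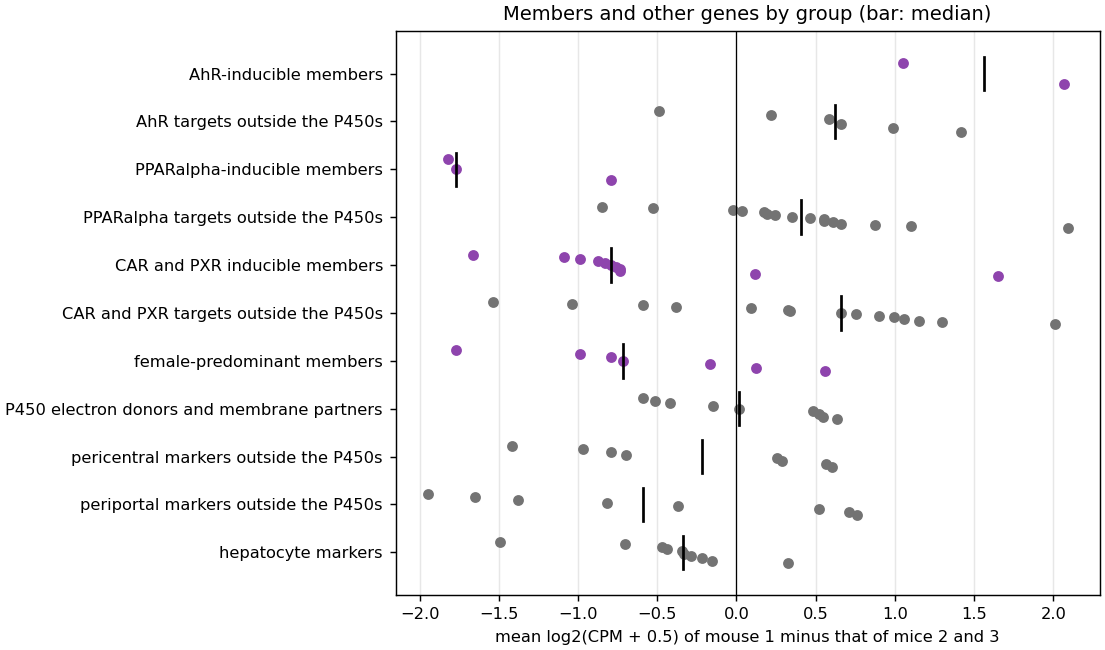
Difference between mouse 1 and the mean of mice 2 and 3 in mean log2(CPM + 0.5) for each tested gene of 11 lists (points, purple for P450 members, grey for other genes), with the median of each list as a bar. Cyp1a1 and Cyp1a2 lie right of 0 with most AhR targets, and Cyp4a10 and Cyp4a14 lie at the far left while most PPARα targets lie right of 0.

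GK overexpression, which raises glucose phosphorylation, called no member in 3 comparisons. The first comparison set GK alone against the 5 combined conditions with endogenous GK (untreated, hP, hL, mP and mL), and a gene was called at an adjusted p under 0.05 (Benjamini-Hochberg, edgeR quasi-likelihood test) with a fold change outside 0.7 to 1.3. No member was called in either direction, against 0.435% of 12176 genes. This fit had no mouse term. The share of variance between mice was 82.3% for the median member and 28.8% for the median gene. Fits without the term are thus less able to call members, and 0 calls in them do not show a weaker response. No member had an unadjusted p under 0.05, DESeq2 called none, and the lowest p belonged to Cyp4f16, of the subfamily that hydroxylates leukotrienes (log2 fold change 0.29, SE 0.15, adjusted p = 0.66, and -0.048 with an offset for each sample's effective transcript length). Cyp2d22 (0.28, SE 0.20, adjusted p = 0.89) and Cyp2a4 (0.24, SE 0.21, adjusted p = 0.96) came next, all 3 higher in 3 of 3 mice. Once mouse was a term, 0 of 47 members and 1.98% of genes were called. With that term 5 members (3 higher) had an unadjusted p under 0.05, against 15.7% of genes (7.81% without it). GK against untreated cells alone likewise called no member, with 0 of 47 at an unadjusted p under 0.05 and none by DESeq2 (0.00821% of genes, or 0.361% with mouse as a term). With the term 1 member had an unadjusted p under 0.05, against 5.55% of genes (2.05% without it). The lowest p there were those of Cyp3a13 (log2 fold change -0.16, SE 0.12), Cyp2d22 (0.28, SE 0.28) and Cyp2d26 (0.16, SE 0.16), each with an adjusted p of 1.0, and those of Cyp3a13 and Cyp2d26 turned sign with the length offset (0.18 and -0.075).

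The GK effect averaged over the 5 GKRP settings, 15 samples against 15, was the most precise comparison. Again no member was called (0.0903% of genes, and 0.312% with mouse as a term, which also called no member), by edgeR or by DESeq2. With mouse as a term 8 members (7 higher) had an unadjusted p under 0.05, against 18.2% of genes. Without the term a single member did (7.11% of genes), Cyp2d40 (log2 fold change 0.37, SE 0.13, edgeR adjusted p = 0.57, and 0.33 with adjusted p = 0.77 without the 2 cultures with low Apob). It was higher in 3 of 3 mice. It was at 3.72 to 7.03 CPM with endogenous GK and 5.95 to 10.3 CPM with GK in mouse 1, at 2.85 to 6.82 and 5.49 to 6.26 CPM in mouse 2 and at 4.22 to 7.63 and 6.71 to 9.56 CPM in mouse 3, so the groups overlapped in each mouse. With mouse as a term the 95% intervals of 41 of 47 members lay wholly between a fold of 0.7 and 1.3, as did those of 76.1% of all genes. Without that term, 21 of 47 members and 64.3% of genes had such intervals. All 6 tested Cyp2d genes had a fold change above 0, from 0.09 for Cyp2d9 to 0.37 for Cyp2d40, each in 3 of 3 mice. The share of all tested genes that were higher in 3 of 3 mice is not given here. These 6 genes are also not independent, as from 10.6% (Cyp2d22) to 54.2% (Cyp2d10) of their words occur in other genes. Summed by subfamily, the Cyp2d reads gave a log2 fold change of 0.15 (SE 0.06, unadjusted p = 0.0127, adjusted p = 0.61, edgeR). The smallest adjusted p of a member with mouse as a term was that of Cyp2d22 (log2 fold change 0.19, SE 0.04, adjusted p = 0.0275), under the fold of the call. That p was 0.0602 without the 2 cultures with low Apob, and 0.0912, 0.0884 and 0.58 without mouse 1, 2 and 3. Cyp2d22 ran from 29.8 to 36.2 CPM with endogenous GK and from 33.5 to 46.2 CPM with GK in mouse 1, from 52.8 to 60.5 and 53.0 to 66.7 CPM in mouse 2 and from 41.8 to 51.3 and 49.9 to 59.7 CPM in mouse 3.

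The Cyp1a, Cyp2b, Cyp3a and Cyp4a sums gave log2 fold changes of -0.02, -0.02, -0.06 and -0.04 for the mean GK effect, with standard errors of 0.25, 0.34, 0.17 and 0.33. Outside the members, the pericentral glutamine synthetase gene Glul was the only list gene called in these 3 comparisons without mouse as a term, for GK against the 5 combined (log2 fold change 1.3, SE 0.25, adjusted p = 0.0074). None of the 9 electron donors, 12 haem genes or 20 tested P450 regulators was called. The haem synthesis gene Alad was called for the mean GK effect with mouse as a term (0.40, SE 0.09, adjusted p = 0.0201), as was Glul (0.54, SE 0.08, adjusted p = 5.65e-04).

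**Figure D4:**
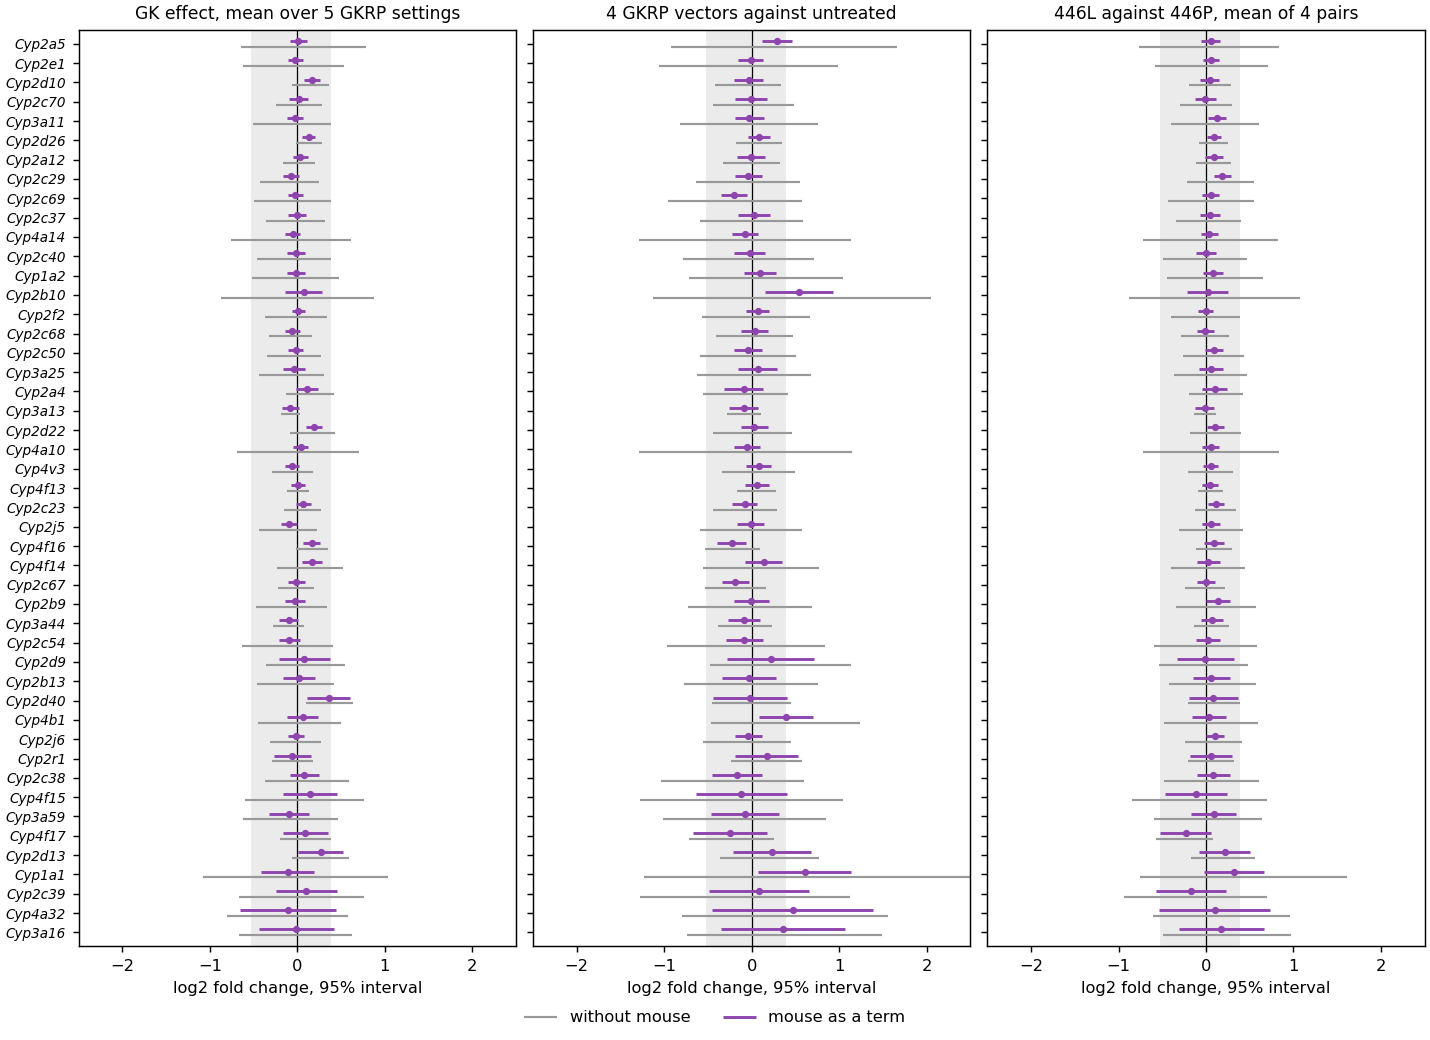
Log2 fold changes of the 47 tested members (ordered by mean TPM) with 95% intervals for the mean GK effect, the 4 GKRP vectors against untreated cells and 446L against 446P, grey from the fit without mouse and purple with mouse as a term. The shaded band spans folds of 0.7 to 1.3. Wholly inside it lie 41, 34 and 41 of the purple intervals and 21, 7 and 13 of the grey. The grey interval of Cyp1a1 for the vectors runs past the axis to 2.61.

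The GKRP vectors at endogenous GK were compared as the mean of hP, hL, mP and mL against untreated cells. Without mouse as a term no member was called (1.91% of genes), none had an unadjusted p under 0.05, and DESeq2 called none. The lowest p belonged to Cyp4f16 (log2 fold change -0.22, SE 0.15, adjusted p = 0.82), Cyp2c67 (-0.19, SE 0.17, adjusted p = 0.96) and Cyp4f17 (-0.23, SE 0.23, adjusted p = 0.98), all lower in 3 of 3 mice, although Cyp4f17 turned to 0.079 with the length offset. Adding mouse as a term to the edgeR fit of all samples called no member either, against 4.14% of genes. The same term called a member higher in edgeR without the 2 cultures with low Apob. It also did so in DESeq2. In edgeR on all samples with mouse as a term, 7 members (4 higher) had an unadjusted p under 0.05, against 18.6% of genes (9.35% without the term). Cyp2a5 then had an adjusted p of 0.0372 below the fold of the call (log2 fold change 0.29, SE 0.08, but -0.15 with the length offset), and Cyp2b10 had a log2 fold change of 0.54 (SE 0.19, adjusted p = 0.0840). Intervals within a fold of 0.7 to 1.3 were found for 34 of 47 members and 49.6% of genes with the term, and for 7 of 47 members and 32.6% of genes without it.

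With GK overexpressed and without mouse as a term, the mean of the 4 GKRP vectors against GK alone called no member (1.59% of genes). Again none had an unadjusted p under 0.05 (9.97% of genes), and DESeq2 without the term called none. With mouse as a term 5 members (3 higher) and 20.2% of genes had such a p. The lowest p were those of the male-predominant Cyp2d9 (log2 fold change 0.57, SE 0.40, adjusted p = 0.78), Cyp2d13 (0.35, SE 0.27, adjusted p = 0.86) and Cyp4f16 (-0.17, SE 0.15, adjusted p = 0.91, and 0.15 with the length offset). Mouse as a term brought 1 of 47 members past the call, Cyp2b10, against 4.35% of genes, a share above that of the members. Its log2 fold change was 0.69 (SE 0.19, 95% interval 0.30 to 1.08, adjusted p = 0.0222), as compared with 0.44 (SE 0.77, interval -1.14 to 2.03, adjusted p = 1.0) without the term. The call was lost without any 1 of the mice (0.31, 0.92 and 0.86 without mouse 1, 2 and 3, with adjusted p = 0.0183, 0.0872 and 0.16) and with the length offset (0.59, adjusted p = 0.59), and it held without the 2 cultures with low Apob (0.59, adjusted p = 0.0188) and without the GK culture with Gckr reads (0.69, adjusted p = 0.0242).

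Cyp2b10 was followed through all conditions because of this call. In mouse 1 it was at 20.9 CPM in untreated cells and 19.5 CPM with GK alone. The vectors hP, hL, mP and mL gave 34.3, 42.7, 51.9 and 46.8 CPM in that mouse, and 52.0, 52.4, 82.2 and 52.3 CPM with GK. In mouse 2 it was at 177 CPM untreated and 188 CPM with GK alone, 211, 243, 229 and 282 CPM with the same 4 vectors, and 209.9, 243, 234 and 230.2 CPM with the vectors and GK. In mouse 3 it was at 71.3 and 64.2 CPM without a GKRP vector, 72.8, 88.3, 93.1 and 94.0 CPM with the vectors, and 77.1, 79.6, 91.6 and 79.6 CPM with the vectors and GK. Thus all 8 samples with a GKRP vector lay above both samples without one in each of the 3 mice. The share of all tested genes with this pattern was not counted, and Cyp2b10 was picked by a call on these same samples. Taken by single culture, 1 untreated culture of mouse 3, at 77.5 CPM, lay above its hP and GK with hP samples. Mouse 2 stayed above both other mice throughout.

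A comparison of the 8 conditions with a GKRP vector against the 2 without was added after these values were seen, so it is a description of the pattern and not an independent test of it. It called no member without mouse as a term (3.36% of genes), with no unadjusted p under 0.05 (15.6% of genes). With mouse as a term it called 2 of 47 (5.71% of genes), Cyp2b10 and Cyp1a1. Under that term 7 members (4 higher) had an unadjusted p under 0.05, against 27.1% of genes. Cyp2b10 had a log2 fold change of 0.62 (SE 0.13, 95% interval 0.34 to 0.89, adjusted p = 0.0020). By mouse the mean log2 difference was 1.3, 0.36 and 0.31 in mice 1, 2 and 3. Apart from the mouse term, the fit treated the conditions of a mouse as independent. Its SE and p therefore do not measure this spread of the difference between 3 mice. Without mouse 1 the fold change was 0.33 (adjusted p = 7.09e-04), short of the fold of the call, and it was 0.57 (adjusted p = 7.25e-04) without the 2 cultures with low Apob and 0.62 (adjusted p = 0.0022) without the GK culture with Gckr reads. With an offset for each sample's effective transcript length it was 0.36 (SE 0.24, adjusted p = 0.76), so the call was lost with that offset. Cyp1a1 had 0.63 (SE 0.18, 95% interval 0.25 to 1.01, adjusted p = 0.0199) from 4 to 101 reads in a culture, and its call was lost without mouse 1 (0.48, adjusted p = 0.19), without mouse 3 (0.61, adjusted p = 0.22) and with the length offset (0.55, adjusted p = 0.41). It held without the 2 cultures with low Apob (0.65, adjusted p = 0.0174) and without the GK culture with Gckr reads (0.58, adjusted p = 0.0373). Its samples with a vector lay above both without one in 8 of 8, 4 of 8 and 7 of 8 cases in mice 1, 2 and 3. Cyp4f16 and Cyp2c69 were lower in 3 of 3 mice (log2 fold changes -0.20 and -0.18, adjusted p = 0.0178 and 0.0194 with mouse as a term) within the fold band.

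**Figure D5:**
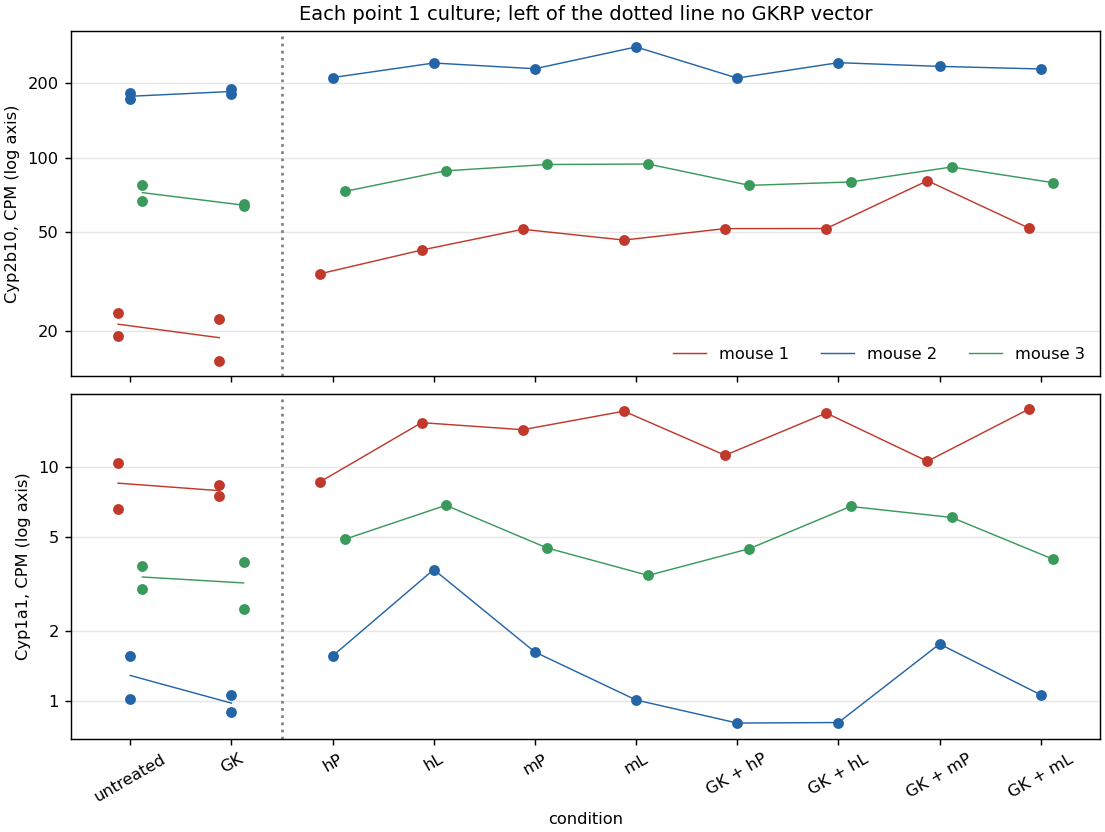
CPM (log axes) of Cyp2b10 (top) and Cyp1a1 (bottom) in each of the 36 cultures by condition, coloured by mouse, with lines through the mean of each mouse and condition and a dotted line between conditions without and with a GKRP vector. All Cyp2b10 points of mouse 1 with a vector, 34.3 to 82.2 CPM, lie above those without, and for Cyp1a1 mouse 1 is highest and mouse 2 lowest in each condition.

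Genes of other lists moved with the same contrast. With mouse as a term the glucocorticoid-induced tyrosine aminotransferase Tat (log2 fold change 0.67, SE 0.14, adjusted p = 0.0020), Tdo2 (0.44, SE 0.15, adjusted p = 0.0428), Pck1 (0.56, SE 0.18, adjusted p = 0.0382) and the CAR and PXR target Sult1e1 (0.42, SE 0.10, adjusted p = 0.0056) rose with the GKRP vectors, and S100a11, a marker of culture, fell by 0.58 (SE 0.09, adjusted p = 1e-04). S100a6 was the single list gene called in this contrast without mouse as a term (log2 fold change -0.55, SE 0.16, adjusted p = 0.0498). The 10 culture markers summed to 6171 to 11440 CPM with a GKRP vector and 10360 to 13220 CPM without. The electron donor partner Cyb5r1 (0.42, SE 0.09, adjusted p = 0.0022), the interferon gene Cxcl10 (0.52, SE 0.18, adjusted p = 0.0453) and the pericentral Lgr5 (0.76, SE 0.24, adjusted p = 0.0325) were also higher with a vector under that term. Angptl4 (-0.58, SE 0.09, adjusted p = 5.11e-05), Glul (-0.62, SE 0.09, adjusted p = 4.72e-05) and S100a6 (-0.54, SE 0.14, adjusted p = 0.0101) were lower. Of the 15 tested CAR and PXR targets outside the P450s only Sult1e1 was called, and of 11 tested inducible members only Cyp2b10. The AhR targets held 0 called genes of 6 in this contrast. Whether these changes have a part in that of Cyp2b10 was not tested.

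Substitution of leucine for proline at residue 446 was compared over 4 pairs (hL against hP and mL against mP, each with endogenous and overexpressed GK). No member was called (0.00821% of genes, and 0.493% with mouse as a term, which also called none), none had an unadjusted p under 0.05 and DESeq2 called none. The lowest p were those of Cyp4f17 (log2 fold change -0.24, SE 0.16, adjusted p = 1.0), Cyp2d13 (0.19, SE 0.18, adjusted p = 1.0) and Cyp2d26 (0.09, SE 0.08, adjusted p = 1.0). The members were mostly above 0 by small amounts, with 37 of 47 above 0 and a median log2 fold change of 0.06, whereas 49.5% of all genes lay below 0. With mouse as a term 38 of 47 lay above 0, and 6 had an unadjusted p under 0.05, all higher with 446L, against 8.64% of genes in either direction. These were Cyp2c29 (0.18, SE 0.05, adjusted p = 0.0691), Cyp2c23, Cyp3a11, Cyp2d26, Cyp2d22 and Cyp2b9. Intervals within a fold of 0.7 to 1.3 were found for 41 of 47 members and 73.9% of genes with mouse as a term. Without the term they were found for 13 of 47 members and 61.5% of genes. By pair, the members' median was -0.02 for hL against hP and 0.02 for mL against mP at endogenous GK, and 0.15 and 0.07 with GK. With the transcript length offset 24 of 47 lay above 0 (median 0.01), and without the 2 cultures with low Apob, which are GK with hL and GK with mP of mouse 1, 41 of 47 did (median 0.06). Outside the members, the haem oxygenase Hmox1 (0.55, SE 0.06, adjusted p = 1.64e-05), the AhR target Tiparp (0.54, SE 0.05, adjusted p = 9.26e-06) and the pericentral transcription factor Tbx3 (0.94, SE 0.13, adjusted p = 1.91e-04) were called with mouse as a term, all higher with 446L.

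Among the single vectors, edgeR without mouse called no member (0.887% of genes for hL against untreated and 1.63% for mP with GK against GK alone). With mouse as a term each of these 2 comparisons called 1 of 47 members (2.13%), a share below the 2.96% and 6.37% of all genes called. Cyp2b10 was called for mP with GK against GK alone (log2 fold change 0.96, SE 0.23, adjusted p = 0.0096), and the call was lost without the 2 cultures with low Apob, 1 of which is the GK with mP culture of mouse 1 (0.60, SE 0.21, adjusted p = 0.0966). It was also lost without mouse 3 (1.17, adjusted p = 0.0938) and with the length offset (1.32, adjusted p = 0.26), and it held without mouse 1 (0.41, adjusted p = 0.0164), without mouse 2 (1.28, adjusted p = 0.0413) and without the GK culture with Gckr reads (0.95, adjusted p = 0.0102). Cyp1a1 was called for hL against untreated (1.13, SE 0.32, adjusted p = 0.0495). That call held without the 2 cultures with low Apob (1.13, adjusted p = 0.0393), and it was lost without any 1 of the mice (adjusted p = 0.13, 0.21 and 0.41 without mouse 1, 2 and 3), with the length offset (adjusted p = 0.40), with RLE scaling (adjusted p = 0.0538) and without the GK culture with Gckr reads (adjusted p = 0.0540), which is in neither group but enters the shared fit. Cyp1a1 went from 8.11 to 15.5 CPM in mouse 1, from 1.27 to 3.66 CPM in mouse 2 and from 3.43 to 6.81 CPM in mouse 3 with hL. The change with GKRP vectors did not differ detectably between GK levels for any member, since the interaction gave 0 of 47 members at an unadjusted p under 0.05 by edgeR, with or without mouse as a term.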

How the data were processed

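Per the labels and methods, the authors quantified reads with Salmon 1.4.0 against Gencode M26 (GRCm39) after FastQC, as the submitters' processing notes also list. They deposited 1 table per culture with estimated counts, TPM and an effective length for each of 139225 transcripts, with no pooling of cultures. Gene symbols came from Gencode M39, which matched 98.8% of transcripts, and unmatched transcripts took 0.392% to 0.639% of reads. Estimated counts were summed per gene, rounded, and then summed over cultures of 1 mouse and condition. Genes passing filterByExpr were scaled by TMM (factors 0.901 to 1.093) and tested with the quasi-likelihood F test of edgeR 4.0.16 (R 4.3.3) in a model of 10 conditions, or of 6 groups for GK against the 5 combined, with Benjamini-Hochberg adjustment over 12176 genes and no covariate. The script was tested on simulated counts. Alternatives were RLE scaling, DESeq2 1.42.0, mouse as a term, 36 cultures as samples, other filters on low counts, a transcript length offset, no fold threshold, subfamily sums and leaving out each mouse. Leaving out the cultures that stand apart, combinations with mouse as a term and the comparison of 8 conditions against 2 were chosen after seeing the data.

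The labels pair samples by animal. Deviations from condition means correlated at 0.248 on average within a mouse and at -0.123 between mice, and 85.9% of 135 same-mouse pairs exceeded 0.1. The biological coefficient of variation was 0.323, and 0.231 once mouse was a term. P-values of the fits without that term include the spread between 3 preparations. That spread was a larger share of variance in the median member than in the median gene. Calls of 0 members in these fits are therefore weak evidence of no response. With mouse as a term that spread is taken out, and p-values rest on the scatter left between samples within mice. Neither kind of fit measures separately how far an effect varies between mice. Depth of 3924674 to 10046158 reads limits low members, and 29 members were not tested.

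Named members were the 15 highest by mean TPM, in each of the 6 main comparisons the called members or else the 3 with the lowest p, and 16 textbook markers of a receptor, zone or sex. Other members and list genes named with the differences between mice were chosen after their values were seen. The members, gene lists and comparisons were chosen with earlier results of these data known. Variance shares used log2(CPM + 0.5). The transcript level of the GK vector's target is not reported here.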

Additional observations from a re-analysis of the deposited data

Results flagged for a closer look

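Of 58 groups of 6 cultures examined over 29 tested named members, in untreated cells and GK alone, a single value stood apart from its group. Cyp4f16 in untreated cells was at 20.27 CPM in 1 culture of mouse 2, the lowest of 6, against 25.5 to 28.17 CPM in the other 5. Its gap to the nearest value was 0.661 of the range, past Dixon's 95% critical value for 6 samples. Chance alone marks about 1 in 20 groups of independent values, whereas each group here holds 2 cultures of each of 3 mice.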

How the results depend on the processing

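Of 310 counts of called members under the alternatives, 296 kept their value, and 14 moved, all with mouse as a term. The replicate block (mouse as a term) moved the members higher with the vectors and GK against GK alone from 0 to 1, also with RLE scaling, with DESeq2, without the 2 cultures with low Apob and without the GK culture with Gckr reads, and it moved those higher in the 8 conditions against 2 from 0 to 2 under the same 4 settings and by itself. For the vectors against untreated cells the block gave 1 member higher without the 2 cultures with low Apob and with DESeq2. Leaving out 1 mouse under the block gave 0 to 2 members higher in the 8 against 2 and 0 in the vectors with GK. The block changed no other count in the main comparisons. For single vectors it gave 1 member higher for hL against untreated cells and 1 for mP with GK against GK alone.

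Of 583 fold changes of named members, 551 stayed on the same side, 20 passed the call only under an alternative and 12 turned sign. The 12 came with the transcript length offset, without and with the block. For the vectors against untreated cells Cyp2a5 gave -0.084 and -0.15 and Cyp4f17 gave 0.079 and 0.023. For GK against the 5 combined Cyp4f16 gave -0.048 and -0.064. For GK against untreated cells Cyp2d26 gave -0.075 and -0.086 and Cyp3a13 gave 0.18 and 0.18. For the vectors with GK Cyp4f16 gave 0.15 and 0.17. The cause was not tested. Low counts limit Cyp1a1, at 4 to 101 reads per culture, and 29 members could not be tested at this depth.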
